A study of Homo sapiens with 24 samples.

Results

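The proteasome core and regulatory subunits are 31 genes whose products build the protein-degrading machine of the cell, taken from the 25343 genes listed in each library. The genes were chosen by name and not by their values: 14 genes of the 20S core (PSMA1 to PSMA7 and PSMB1 to PSMB7) and 17 genes of the 19S cap (PSMC1 to PSMC6, and PSMD1, PSMD2, PSMD3, PSMD4, PSMD6, PSMD7, PSMD8, PSMD11, PSMD12, PSMD13 and PSMD14). All 31 were found, and all 31 passed the filter on low counts in every comparison.

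The proteasome degrades proteins that carry ubiquitin chains, including misfolded proteins returned to the cytosol from the endoplasmic reticulum. Its barrel-shaped core is made of outer alpha rings (PSMA), which gate the entrance, and inner beta rings (PSMB), in which PSMB5, PSMB6 and PSMB7 cut proteins. The cap has a ring of ATPases (PSMC), which unfold substrates and feed them into the core, and non-ATPase subunits (PSMD), which bind ubiquitin chains, remove them and hold the cap together. When proteasome activity falls short, the transcription factor NFE2L1 is known to raise most subunit genes together.

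PTDSS1 and PTDSS2 are the enzymes that make phosphatidylserine, and the study asked how cells that lack PTDSS2 respond to DS07551382, an inhibitor of PTDSS1. RNA was sequenced from HCT116 (a line of colon cancer origin) and from A375 (of melanoma origin), each as the wild type parent line and as a PTDSS2 knockout line (clone #3 in HCT116, clone #54 in A375). Each of these was kept for 24 h with the vehicle DMSO or with 0.1 µM inhibitor, which gives 8 groups of 3 libraries. Each knockout line is 1 clone, so the loss of PTDSS2 and the history of the clone cannot be told apart. The labels do not say whether the 3 libraries of a group were grown as separate cultures, and the p-values take in no more than the spread among libraries, which may be technical.

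In units of 1e6 counts, the libraries held 6.21 to 11.69 with a median of 9.20, and depth was lowest in HCT116 knockout libraries with inhibitor (mean 6.89). The 31 genes took 0.580 to 0.698% of the counts of a library, and a single member held between 496 and 5790 counts. For 28 of the 31 genes the deposited counts were whole in every library (within 0.005 of a count), and for PSMB7, PSMC5 and PSMD4 they were not, since some of their reads were shared with other genes. PTDSS2 was lower in knockout than in parent vehicle libraries by a log2 difference of -2.43 in HCT116 and -4.71 in A375, in the direction of the labels. Of 8 colon epithelium markers 6 had a median of at least 1 TPM (transcripts per 1e6, scaled for gene length) in HCT116 and 2 in A375, with CDX1 at 0 throughout and VIL1 at a median of 0 in both lines. Of 8 melanocyte markers 4 did so in A375, among them SOX10, and 2 in HCT116, while TYR was at 0 in every library.

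Levels of different subunit genes were compared in TPM. PSMA7, a subunit of the alpha ring, was the most abundant with a mean of 889.8 TPM over the 24 libraries, followed by the beta ring gene PSMB4 with 804 TPM. The lowest were also core genes, the beta ring gene PSMB2 with 97.2 TPM and the alpha ring gene PSMA5 with 85.1 TPM. The core thus spanned a wider range of RNA levels than the cap, where the highest gene was the ubiquitin receptor PSMD4 with 394 TPM and the lowest the ATPase PSMC6 with 111 TPM. The median gene stood at 314 TPM in the core and at 232 TPM in the cap. Between the highest and the lowest of the 8 group means the ATPase gene PSMC4 differed 2.46-fold, PSMB4 2.4-fold and the lid gene PSMD6 2.17-fold. The beta ring gene PSMB3 was the most even, at 1.11-fold.

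**Figure D1:**
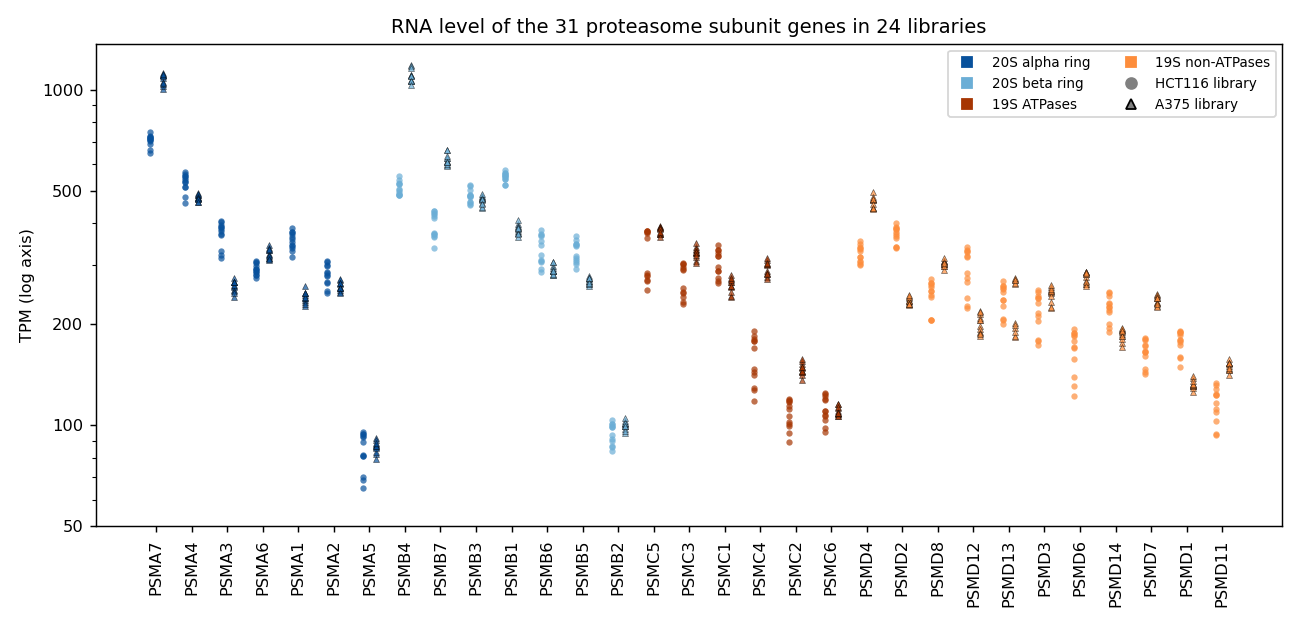
RNA level of each of the 31 subunit genes in TPM on a log axis, with HCT116 libraries as circles and A375 libraries as triangles, sorted within rings by mean level. PSMA7 and PSMB4 stand highest and PSMA5 and PSMB2 lowest, and PSMB4, PSMC4 and PSMD6 separate the lines.

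Summed over its 14 genes, the core held 5570, 5513 and 5456 TPM in the 3 HCT116 parent vehicle libraries and 4954, 4940.1 and 4905 TPM in the 3 HCT116 knockout libraries with inhibitor. The sum of the 17 cap genes was 4136, 4154 and 4103 TPM in the former and 3247, 3299 and 3285 TPM in the latter. The HCT116 knockout vehicle libraries lay between these groups for both sums, with no overlap. Relative to parent vehicle, mean core RNA fell by 5.0% and cap RNA by 11.4% in knockout vehicle, and core RNA fell by 10.5% and cap RNA by 20.7% in the knockout with inhibitor. In these HCT116 libraries the percentages were larger for the cap sum than for the core sum, and the sums carry no test. In A375 the core sum of the knockout with inhibitor was 1.1% above that of knockout vehicle, within the spread of the libraries, and the cap fell by 2.7%, with its 3 libraries below all 3 of knockout vehicle.

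The log2 ratio of core to cap sums was 0.42 ± 0.01 (SD, n = 3) in HCT116 parent vehicle and 0.42 ± 0.01 with inhibitor, against 0.52 ± 0.01 in knockout vehicle and 0.59 ± 0.02 in the knockout with inhibitor. In A375 the ratio was 0.50 ± 0.03 and 0.48 ± 0.01 in the parent groups, 0.50 ± 0.02 in knockout vehicle and 0.56 ± 0.03 in the knockout with inhibitor. In both lines the 3 knockout libraries with inhibitor had a higher ratio than the other 9 libraries of that line. In A375 the core gene PSMB4 had a mean of 1061 TPM in knockout vehicle and 1174 TPM in the knockout with inhibitor. The mean core sum was 5981 and 6048 TPM in these groups, so PSMB4 rose by more than the whole sum did. The ratio without PSMB4 was not computed. In bulk RNA, fewer cells of a kind and less RNA per cell cannot be told apart. Along with these sums, the summed level of the 8 colon epithelium markers ran from 4278 to 4367 TPM in the HCT116 knockout with inhibitor and from 4976 to 5228 TPM in knockout vehicle. In A375 the same sum ran from 295 to 322 TPM in the knockout with inhibitor and from 379 to 400.1 TPM in knockout vehicle. Only 2 of these 8 had a median of at least 1 TPM over the A375 libraries, KRT18 at 352.3 and KRT8 at 25.1 TPM. The A375 sum is thus mostly the level of KRT18. The 8 melanocyte markers summed to 477 to 528 TPM and to 373 to 398 TPM in these A375 groups. Of them 4 had a median of at least 1 TPM in A375: SOX10 at 284, ERBB3 at 120.5, S100B at 48.4 and MITF at 13.2 TPM. The part of these markers in the result was not tested.

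**Figure D2:**
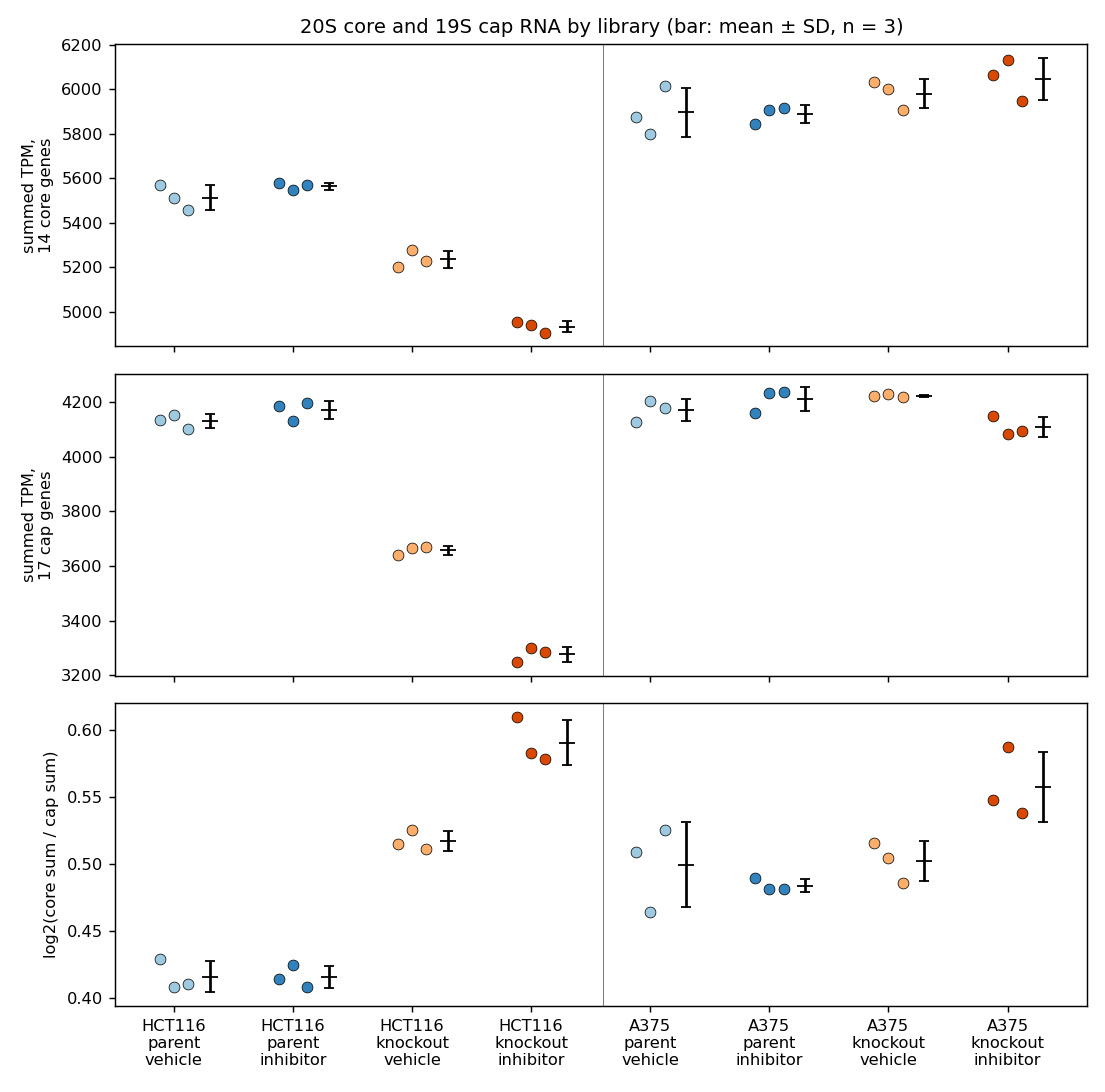
Summed TPM of the 14 core genes (top) and the 17 cap genes (middle) and their log2 ratio (bottom) in each library, with the mean ± SD of 3 libraries beside each group; the vertical axes do not start at 0. The HCT116 knockout libraries lie below the parent libraries in both sums, and the ratio is highest in the knockout with inhibitor of each line.

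In the parent lines the inhibitor met an intact PTDSS2, and no subunit gene passed the test. edgeR called 0 of 31 members in HCT116 (background 0% of 13164 genes in either direction), with 1 member at an unadjusted p under 0.05 and 0 calls by DESeq2. In A375 it also called 0 of 31 (background 0.0372% up and 0.0669% down), with 2 at an unadjusted p under 0.05 and 0 calls by DESeq2. The genes at an unadjusted p under 0.05, named after their values were seen, were PSMC4 in HCT116 at a log2 fold change of 0.08 ± 0.04 (SE) and PSMA1 and PSMD12 in A375 at 0.10 ± 0.04 and 0.11 ± 0.04. Median log2 fold changes over the 31 genes were 0.03 in HCT116 and 0.03 in A375.

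In the HCT116 knockout the inhibitor lowered the RNA of many subunit genes, most of them non-ATPase subunits and few of them beta subunits. edgeR called 19 of 31 members down and 0 up at an adjusted p under 0.05, against a background of 20.1% down and 17.1% up over all genes tested. The falls were 61.3% of the members, and of the 2563 genes within the members' range of mean expression 42.8% were called down. All 31 log2 fold changes were below 0, and their median was -0.11, against -0.08 over genes in that range and 0.00 over all genes tested. DESeq2 called 15 down and 0 up.

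Among the 17 cap genes 13 fell, with a median of -0.18, and among the 14 core genes 6 fell, with a median of -0.08. The falls were 76.5% of the cap genes and 42.9% of the core genes, and the core was thus level with genes in the members' range of expression (42.8% down, median -0.08). By ring, 5 of 7 alpha subunits, 1 of 7 beta subunits (PSMB2), 3 of 6 ATPases and 10 of 11 non-ATPase subunits fell. The share of beta subunits, 14.3%, was below the 42.8% of genes in the members' range of expression, and that of ATPases, 50%, was near it. Alpha subunits stood at 71.4% and non-ATPase subunits at 90.9%. PSMD4, a receptor for ubiquitin chains, was the non-ATPase gene not called, at -0.02 ± 0.04. The difference between core and cap was not tested.

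PSMD6, a subunit of the lid of the cap, moved most, from 104, 116 and 113 counts per 1e6 (CPM) in knockout vehicle to 87.95, 94.4 and 83.6 CPM with inhibitor. All 3 libraries with inhibitor were below the lowest vehicle library. Its log2 fold change was -0.32 ± 0.05 (edgeR adjusted p = 5.18e-07), and both parent groups lay higher, between 118.5 and 128.5 CPM.

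The alpha ring gene PSMA3 had 178, 194 and 172.5 CPM in vehicle and 149.8, 151 and 153 CPM with inhibitor, again without overlap, a log2 fold change of -0.26 ± 0.04 (edgeR adjusted p = 8.66e-07). PSMA3 overlaps the antisense gene PSMA3-AS1, and the library kit does not mark strand, so reads of that pair could be mixed. The deposited counts of PSMA3 were whole in every library, with no sign of reads split between genes. The lid gene PSMD12 went from 236, 239 and 247 CPM to 202, 209.5 and 193 CPM (log2 fold change -0.26 ± 0.04, edgeR adjusted p = 1.42e-07). Another lid gene, PSMD8, went from 179, 192 and 178 CPM to 155.5, 152 and 151 CPM (log2 fold change -0.26 ± 0.04, edgeR adjusted p = 5.35e-07). For these 3 genes the libraries with inhibitor stayed below those with vehicle.

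The genes of the cutting sites were not called. PSMB5, which carries the chymotrypsin-like site, had 173, 174.5 and 174 CPM in vehicle and 178.5, 164 and 170.5 CPM with inhibitor, overlapping sets with a log2 fold change of -0.02 ± 0.04 (edgeR adjusted p = 0.752). PSMB6, with the caspase-like site, had 119.9, 130.2 and 112 CPM against 123, 123 and 114 CPM, at -0.01 ± 0.05 and an edgeR adjusted p of 0.951. PSMB7, with the trypsin-like site, had 174, 183.5 and 176 CPM against 178, 173 and 159 CPM, at -0.06 ± 0.04 and an edgeR adjusted p of 0.248. PSMD14, the enzyme of the cap that removes ubiquitin chains, did fall, from 178.5, 192 and 182 CPM to 165.5, 167 and 156 CPM (-0.18 ± 0.04, edgeR adjusted p = 0.000578). Its libraries with inhibitor were all below those with vehicle.

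**Figure D3:**
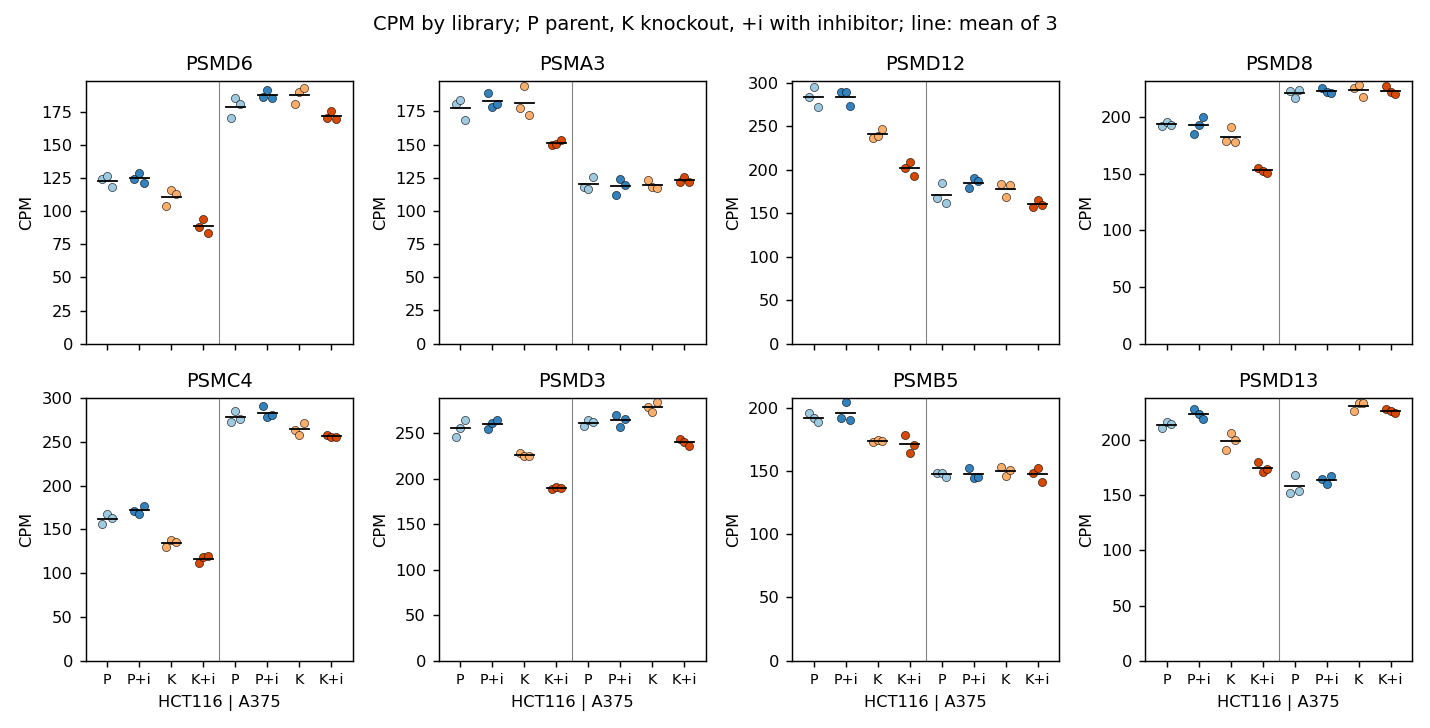
CPM of 8 subunit genes in each of the 24 libraries, with the mean of 3 as a line; P is parent, K knockout and +i with inhibitor, HCT116 to the left and A375 to the right of the line. PSMD6, PSMA3, PSMD12, PSMD8, PSMC4, PSMD3 and PSMD13 are lowest in the HCT116 knockout with inhibitor among HCT116 groups, PSMB5 overlaps between the HCT116 knockout groups, and PSMD13 is higher in the A375 knockout than in the A375 parent.

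The inhibitor effect in the HCT116 knockout was then set against that in the parent, as a difference of log2 fold changes. Of 31 members, 14 had a lower effect in the knockout and 0 a higher one (background 13.8% down and 11.1% up, and 33.4% down among genes in the members' range of expression), which is 45.2% of the members. These were 3 of 14 core and 11 of 17 cap genes, and 10 of the 11 were non-ATPase subunits. The largest differences were those of PSMD6 at -0.35 ± 0.07 (edgeR adjusted p = 8.12e-05), PSMA3 at -0.30 ± 0.06 (edgeR adjusted p = 5.09e-05) and the ATPase gene PSMC4 at -0.29 ± 0.06 (edgeR adjusted p = 0.000117). PSMC4 had 157, 167 and 163 CPM in parent vehicle, 171, 168 and 176.5 CPM in parent with inhibitor, 130, 138 and 136 CPM in knockout vehicle and 112, 118.5 and 119.6 CPM in the knockout with inhibitor. Its parent libraries thus lay above all knockout libraries, and the libraries with inhibitor lay below those with vehicle in the knockout and just above them in the parent.

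Without inhibitor the HCT116 knockout clone already had less subunit RNA than its parent. Of 31 members 17 were lower and 0 higher (background 10.8% down and 10.5% up, and 19.2% down among genes in the members' range of expression). This is 54.8% of the members, with a median of -0.10 against -0.01 over genes in that range and 0.00 over all genes tested. All 6 ATPases were lower, with a median of -0.20, beside 6 of 11 non-ATPase subunits, 4 of 7 beta subunits and 1 of 7 alpha subunits. The 3 genes of the cutting sites were among them, PSMB6 at -0.22 ± 0.05, PSMB7 at -0.17 ± 0.04 and PSMB5 at -0.15 ± 0.04.

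PSMC5, an ATPase, showed the largest difference, with 235, 249 and 242 CPM in parent vehicle and 185, 189.5 and 178 CPM in knockout vehicle. The groups stood far apart, at a log2 fold change of -0.40 ± 0.04 (edgeR adjusted p = 6.86e-14). PSMC5 overlaps FTSJ3 and shared reads with it could be split between the genes, and FTSJ3 itself was lower by -0.15. PSMC4 followed at -0.27 ± 0.04 (edgeR adjusted p = 3.63e-07). PSMD12, with 284, 295 and 272 CPM in parent vehicle and the knockout values given above, was at -0.24 ± 0.04 (edgeR adjusted p = 2.95e-07). All knockout libraries of these 3 genes were below all parent libraries.

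In the A375 knockout the inhibitor lowered fewer subunit genes, and 1 rose. edgeR called 8 of 31 members down and 1 up (background 18.8% down and 18.7% up, and 39% down among the 2669 genes in the members' range of expression). The falls were 25.8% of the members, a share between those backgrounds. The median over the 31 genes was -0.05, the same as over genes in that range (-0.05), against 0.01 over all genes tested. Of the 8 falls 7 were in the cap, 2 of 6 ATPases and 5 of 11 non-ATPase subunits, and the other was the alpha ring gene PSMA2. The falls were 41.2% of the cap genes, near the 39% of genes in the members' range of expression. They were 7.14% of the core genes, well below that share. DESeq2 called 6 down and 1 up. Without knockout inhibitor replicate 3, 2 members were up, PSMB4 and PSMC2.

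PSMD3, a lid subunit, had 279, 273 and 284 CPM in A375 knockout vehicle and 243, 240.0 and 236 CPM with inhibitor. The groups did not overlap, and the log2 fold change was -0.22 ± 0.03 (edgeR adjusted p = 7.62e-08). The ATPase gene PSMC1 went from 208, 199 and 213 CPM to 180.5, 186 and 187 CPM (-0.17 ± 0.04, edgeR adjusted p = 0.000131). PSMD12 went from 183.5, 169 and 182 CPM to 157, 165 and 159.7 CPM (-0.15 ± 0.04, edgeR adjusted p = 0.00154), and the ATPase gene PSMC3 from 252, 267 and 253 CPM to 239, 236.5 and 227 CPM (-0.14 ± 0.03, edgeR adjusted p = 0.000751). For all of these the libraries with inhibitor were the lower ones.

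PSMB4, a beta subunit without a cutting site, rose from 475, 457 and 449 CPM to 497.5, 509.7 and 489 CPM, without overlap (log2 fold change 0.12 ± 0.03, edgeR adjusted p = 0.000894). The cutting-site genes were not called, PSMB5 at -0.03 ± 0.04 (edgeR adjusted p = 0.628), PSMB6 at -0.09 ± 0.04 (edgeR adjusted p = 0.0777) and PSMB7 at 0.05 ± 0.03 (edgeR adjusted p = 0.187). PSMB5 had 153, 146 and 150.4 CPM in knockout vehicle and 148, 152 and 141 CPM with inhibitor, and PSMB7 had 299, 290.1 and 293 CPM against 307, 315 and 294 CPM. PSMB6 had 118, 116 and 122 CPM in vehicle and 109, 115 and 111 CPM with inhibitor, where the latter were just below the former. PSMD14 had 144, 154 and 164 CPM against 147, 154 and 156 CPM, at -0.01 ± 0.04 and an edgeR adjusted p of 0.861.

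Set against the parent, the inhibitor effect in the A375 knockout was lower for 8 members and higher for 0 (background 14% down and 13.3% up, and 32.5% down among genes in the members' range of expression), 2 in the core and 6 in the cap. With scaling by library size alone these counts were 5 lower and 1 higher, the latter PSMB4, and with DESeq2 they were 5 and 0. With TMM scaling the 2 core genes were 14.3% of the core. The 6 cap genes were 35.3% of the cap, near the 32.5% of genes in the members' range of expression. PSMD12 led at -0.27 ± 0.06 (edgeR adjusted p = 0.000171), before PSMD3 at -0.23 ± 0.05 (edgeR adjusted p = 4.83e-05) and PSMC1 at -0.20 ± 0.05 (edgeR adjusted p = 0.00146).

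The knockouts of the 2 lines share no library, and 7 members fell in both: PSMA2, PSMC1, PSMD3, PSMD6, PSMD7, PSMD11 and PSMD12. These were 36.8% of the falls in HCT116 and 87.5% of those in A375, with PSMC3 the fall called in A375 alone. Falls in both lines made up 22.6% of the members, 9.89% of the 12003 genes tested in both lines and 27.7% of the 1887 of these in the members' range of expression, so the members' share was below that of genes at their level. Among the latter genes the shared falls were 62.4% of those in HCT116 and 64.9% of those in A375. Of the 7, PSMD3, PSMD6, PSMD7, PSMD11 and PSMD12 are lid subunits, and PSMD7 is the partner of the deubiquitinase PSMD14. The lid genes PSMD8, PSMD13 and PSMD14 fell in HCT116 but were not called in A375. Called in neither knockout were 10 members: PSMA1, PSMA6, PSMB1, PSMB3, PSMB5, PSMB6, PSMB7, PSMC5, PSMC6 and PSMD4. Across the 31 genes the log2 fold changes of the lines had a Pearson r of 0.26, as a description over genes measured in the same libraries.

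**Figure D4:**
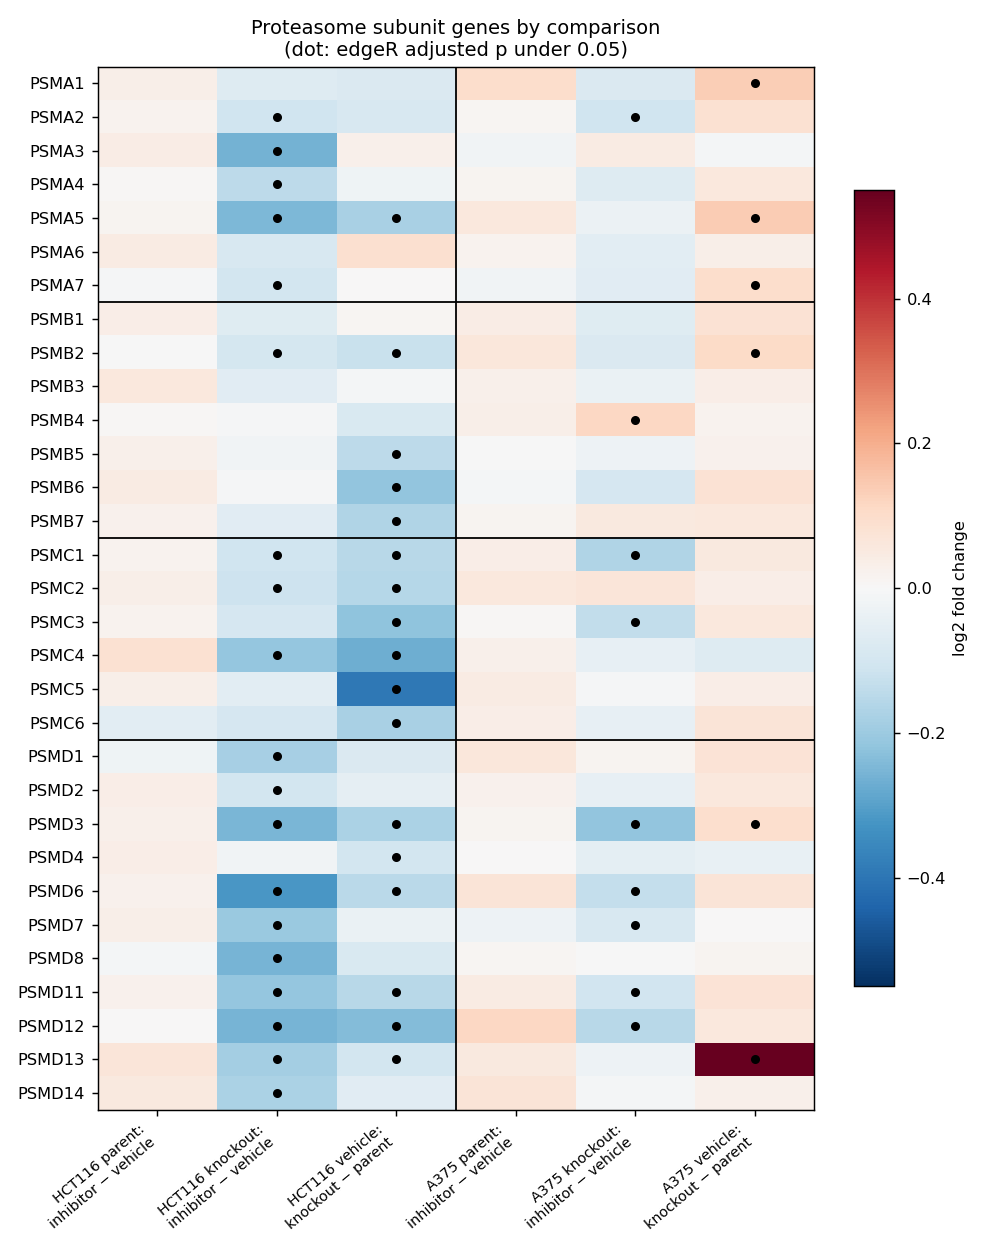
Log2 fold change of each subunit gene in 6 comparisons, red for higher and blue for lower, with a dot where the edgeR adjusted p was under 0.05; lines separate the rings and the cell lines. Falls fill most of the cap in the HCT116 knockout, fewer cells are marked in the A375 knockout, the parent columns hold no dot, and PSMD13 stands out in the last column.

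A direct test of the inhibitor effect between the knockouts gave 9 members with a higher value in A375 than in HCT116 and 0 with a lower one (background 10.9% up and 8.75% down, and 22.1% up among genes in the members' range of expression), which is 29.0% of the members. They were 2 core genes (14.3% of the core) and 7 cap genes (41.2% of the cap). PSMA3 differed by 0.31 ± 0.06 (edgeR adjusted p = 3.73e-05). It fell in HCT116 and had 123, 118 and 117 CPM in A375 vehicle against 122, 126 and 122 CPM with inhibitor. PSMD8 differed by 0.26 ± 0.05 (edgeR adjusted p = 7.55e-05), with 225.5, 228 and 218 CPM against 228, 222 and 220.2 CPM in A375. PSMA5, an alpha subunit, differed by 0.22 ± 0.06 (edgeR adjusted p = 0.00301), from 152, 157.5 and 153 CPM to 133, 133 and 123 CPM in HCT116 and from 175, 165 and 169 CPM to 161, 173 and 164 CPM in A375. In A375 the groups overlapped for these 3 genes. Without HCT116 knockout vehicle replicate 2, 5 members differed: PSMA3, PSMA5, PSMC2, PSMD1 and PSMD8.

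Without inhibitor, PSMD13 was the member called higher in the A375 knockout clone than in its parent under every setting run, and the count of the other members was near background and moved with the scaling. With TMM scaling 6 of 31 members were higher and 0 lower (background 9.54% up and 6.78% down, and 18.9% up among genes in the members' range of expression, beside 19.4% of the members), but with scaling by library size alone 1 was higher, PSMD13, and 1 lower, PSMC4. DESeq2 called PSMD13 alone, and PSMC4 was also called lower in a fit of only the 6 libraries compared. The count was 2 without parent vehicle replicate 1 or 3 and 3 without knockout vehicle replicate 1 or 3, and PSMD13 was among those called each time. The alpha subunit genes PSMA5 at 0.14 ± 0.04 (edgeR adjusted p = 0.00798) and PSMA1 at 0.14 ± 0.04 (edgeR adjusted p = 0.0158) were called with TMM scaling but not with library size alone or DESeq2. PSMA5 had 152, 163 and 148 CPM in parent vehicle and 175, 165 and 169 CPM in knockout vehicle, and PSMA1 had 135, 134.5 and 130.2 CPM against 144, 141 and 154 CPM. For both genes the knockout libraries were just above the parent ones.

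PSMD13, a lid subunit, was the exception in size. It had 152, 169 and 154 CPM in A375 parent vehicle and 226, 233 and 234 CPM in knockout vehicle, and the inhibitor groups repeated the step with 165, 160.5 and 167 CPM in the parent and 228, 226 and 225 CPM in the knockout. Every knockout library was above every parent library. The log2 fold change in vehicle was 0.55 ± 0.04 (edgeR adjusted p = 1.69e-18), 46.0% higher. In HCT116 the same gene had 211, 217 and 214 CPM in parent vehicle and 191, 206.5 and 200.1 CPM in knockout vehicle, at -0.10 ± 0.04 (edgeR adjusted p = 0.0343).

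PSMD13 lies on chromosome 11 close to PTDSS2, the gene that was knocked out, with 6 other genes tested in A375 between them by the gene order of the RefSeq table. Of the 11 genes tested in A375 from the chromosome start to PTDSS2, 8 were higher in the knockout and 0 lower, with a median of 0.50, namely BET1L at 0.31 ± 0.07, RIC8A at 0.51 ± 0.04, SIRT3 at 0.39 ± 0.13, PSMD13, IFITM2 at 0.98 ± 0.11, IFITM3 at 0.50 ± 0.05, PKP3 at 0.87 ± 0.08 and SIGIRR at 0.79 ± 0.14. IFITM2 and IFITM3 are near-identical copies whose reads could be split between them. Of the next 20 genes on the far side of PTDSS2, 0 were higher and 2 lower, with a median of -0.04, and of the other 702 genes of chromosome 11, 10.3% were higher. In HCT116 5 of 12 genes up to PTDSS2 were higher and 1 lower, which was PSMD13, with a median of 0.14, and 3 of the next 20 were higher. The neighbours were looked at after the value of PSMD13 was seen, and why these genes moved was not tested.

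**Figure D5:**
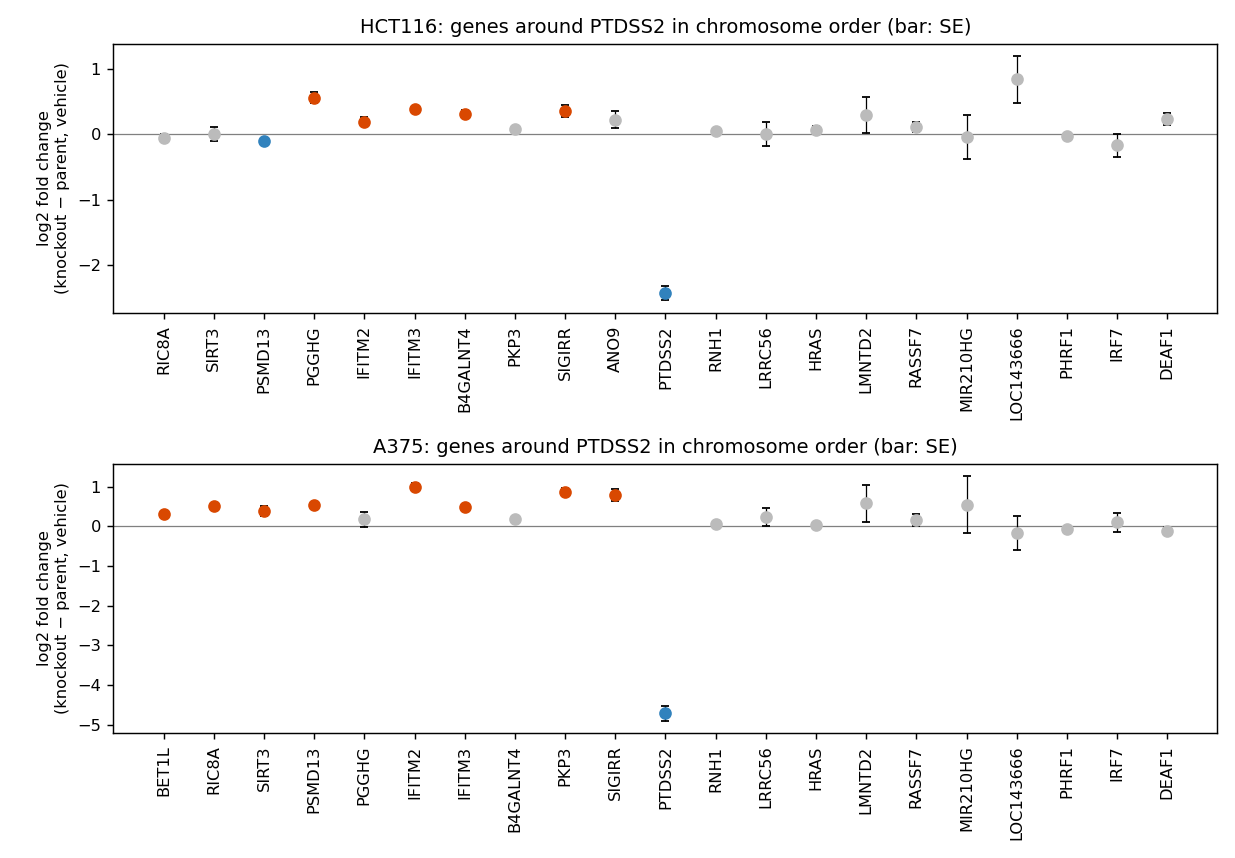
Log2 fold change of knockout over parent in vehicle (± SE) for the tested genes on either side of PTDSS2 in chromosome order, with genes at an edgeR adjusted p under 0.05 in red (higher) or blue (lower), HCT116 above and A375 below. In A375 the genes before PTDSS2, PSMD13 among them, are mostly higher and none of those after it is called higher; in HCT116 PSMD13 is slightly lower.

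The difference between the clones was tested in the fit over both lines, a comparison added after the values were seen. Of 31 members, 19 had a higher knockout-to-parent value in A375 than in HCT116 and 0 a lower one (background 9.44% up and 8.25% down, and 20.3% up among genes in the members' range of expression), among them all 6 ATPases. PSMD13 differed by 0.64 ± 0.05 (edgeR adjusted p = 1.65e-18), PSMC5 by 0.42 ± 0.05 (edgeR adjusted p = 1.39e-10) and PSMA5 by 0.31 ± 0.06 (edgeR adjusted p = 1.32e-05). PSMC5 had 237, 239 and 253 CPM in A375 parent vehicle and 258, 246 and 242 CPM in knockout vehicle, which overlap.

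The parent lines themselves differed in most subunit genes, without a common direction. In vehicle 13 of 31 members were higher in A375 and 15 were higher in HCT116, against a background of 42.2% and 39.6% of 14637 genes, so the share of members that differed was near that of all genes. PSMB4 was higher in A375 by 1.08 ± 0.03 on the log2 scale (edgeR adjusted p = 1.09e-50), with 446, 449 and 467 CPM against 224, 230.1 and 221 CPM in HCT116. PSMC4 was higher in A375 by 0.84 ± 0.04 (edgeR adjusted p = 6.56e-40), with 273, 285 and 277 CPM beside the HCT116 values given above. PSMD2, one of the large scaffold subunits that dock ubiquitin carriers, was higher in HCT116, with 574, 552 and 551 CPM against 333, 346 and 333 CPM in A375, at -0.66 ± 0.03 (edgeR adjusted p = 8.67e-37). For none of these 3 genes did the lines overlap. CPM of the lines was scaled within each line, and the tests rest on the fit over all 24 libraries.

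Genes that control subunit synthesis were measured from a separate list of 8. In the HCT116 knockout the inhibitor raised 2 and lowered 3 of them, and in the A375 knockout it raised 6 and lowered 1. These were 25% and 37.5% of the list in HCT116 and 75% and 12.5% in A375, beside 17.1% up and 20.1% down, and 18.7% up and 18.8% down, over all genes tested. Genes in the members' range of expression had 16.3% up and 42.8% down in HCT116 and 22.9% up and 39% down in A375. Of the 8, DDI2 and MAFF lay below that range in HCT116. NFE2L1 went from 208.5, 222 and 199 CPM to 276, 272 and 265 CPM in HCT116 (0.37 ± 0.04, edgeR adjusted p = 7.83e-13) and from 282.5, 277.5 and 269 CPM to 322, 326 and 323 CPM in A375 (0.23 ± 0.03, edgeR adjusted p = 9.06e-09). Its RNA thus rose in both knockouts, in which 0 and 1 of the 31 subunit genes rose. In HCT116 the knockout vehicle libraries had started lower than the parent, by -0.42 ± 0.04. With inhibitor the HCT116 knockout reached a mean of 270.8 CPM, not above the parent means of 279.8 CPM in vehicle and 283.7 CPM with inhibitor. MAFG, a small MAF protein that pairs with NFE2L1, rose by 0.35 ± 0.05 in HCT116 and 0.46 ± 0.04 in A375.

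DDI2, the protease that releases NFE2L1 in its active form, went from 22.6, 21.1 and 22.9 CPM to 17.4, 14.2 and 14.1 CPM in HCT116 (-0.53 ± 0.10, edgeR adjusted p = 2.93e-05) and was at -0.25 ± 0.09 in A375 (edgeR adjusted p = 0.0278), a fall in both. NGLY1, which removes sugar chains from NFE2L1, was not called in either knockout (-0.04 ± 0.09 and 0.07 ± 0.08). NFE2L3, a close relative of NFE2L1, fell by 0.43 on the log2 scale in HCT116 and rose by 0.30 ± 0.06 in A375, and that difference between the lines passed the test (0.74 ± 0.08, edgeR adjusted p = 4.17e-12). NFE2L2 and MAFF rose in A375, by 0.11 ± 0.04 and 0.38 ± 0.07, and MAFK fell in HCT116 at -0.19 ± 0.06 and rose in A375 by 0.18 ± 0.07.

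Of 9 chaperones that assemble the proteasome, 4 fell in the HCT116 knockout with inhibitor and 0 in the A375 knockout, by edgeR (44.4% and 0% of the list, beside 20.1% and 18.8% down over all genes tested). Of genes in the members' range of expression 42.8% and 39% were called down, so the share in HCT116 was near that of such genes. Some chaperones, PSMG4 and PAAF1 among them, lay below that range. Tested directly, the effect was higher in A375 for 2 of the 9 and lower for 1. These were 22.2% and 11.1% of the list, beside 10.9% and 8.75% over all genes tested and 22.1% and 15.9% of genes in the members' range of expression. POMP, which matures the beta ring, fell in HCT116 at -0.23 ± 0.05 and was at 0.00 ± 0.04 in A375, and the difference passed the test (0.24 ± 0.06, edgeR adjusted p = 0.00207). The others in HCT116 were PSMG1 at -0.29 ± 0.06 and PSMG3 at -0.20 ± 0.07, which assemble the alpha ring, and PSMD5 at -0.18 ± 0.06, which assembles the ATPase ring. In A375 2 chaperones were at an unadjusted p under 0.05.

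Among alternative caps, PSME3, the nuclear activator, fell in both knockouts (-0.34 ± 0.04 in HCT116 and -0.15 ± 0.03 in A375), and PSME4 fell in HCT116 at -0.23 ± 0.04 and rose in A375 by 0.17 ± 0.04. ADRM1, a ubiquitin receptor that sits on the cap, fell in both, at -0.18 ± 0.04 and -0.25 ± 0.03. Of 7 cap-associated genes outside the members, ADRM1 among them, 4 fell in HCT116 and 1 in A375. These were 57.1% and 14.3%, beside 20.1% and 18.8% down over all genes tested. Of 5 genes for activators and an inhibitor, 2 fell in HCT116, and 2 fell and 1 rose in A375. In vehicle 2 of those 5 were higher and 0 lower in the HCT116 knockout than in its parent. The immunoproteasome genes PSMB8 and PSMB9 replace PSMB5 and PSMB6 in immune cells. PSMB8 had 28.8, 32.6 and 31.75 CPM in A375 parent vehicle and did not pass the filter on low counts in HCT116. PSMB9 was higher in the A375 than in the HCT116 parent by 2.33 ± 0.17, and in the A375 knockout neither was called after inhibitor. Of the 3 tested immunoproteasome and tissue-specific genes, 2 were higher and 1 lower in the A375 parent (background 42.2% and 39.6%). In the HCT116 knockout with inhibitor 1 of the 2 tested there fell, at -0.32 (edgeR adjusted p = 0.00348), beside 20.1% down over all genes tested.

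Promoters were searched for the element through which NFE2L1 and its relatives are known to act, with the letters TGACNNNGC on either strand. RefSeq promoters of build GRCh38.p14, from 250 bases before to 50 after the start of a gene, were at hand for 26 of the 31 members, and not for PSMA7, PSMB1, PSMB6, PSMB7 and PSMD4. The element was in 5 of 26 (19.2%), 1 core and 4 cap genes, beside 13.35% of the 35116 promoters in the table. The longer form TGACTCAGC was in 0 of 26 and in 0.56% of all promoters, and TGACTCA, which it contains, was in 0 of 26 and 4.95%. The matches that lie before the start were those of PSMB3, PSMD12 and PSMD3, shown here as windows of 60 bases on the gene's strand with the element in capitals.
PSMB3, chr17:38752611-38752670, plus strand: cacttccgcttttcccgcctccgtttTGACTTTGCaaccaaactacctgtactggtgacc
PSMD12, chr17:67366709-67366768, minus strand: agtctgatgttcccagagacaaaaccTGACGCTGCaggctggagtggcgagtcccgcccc
PSMD3, chr17:39980744-39980803, plus strand: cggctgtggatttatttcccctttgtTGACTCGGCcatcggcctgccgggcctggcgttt
PSMD12 and PSMD3 fell in both knockouts with inhibitor, and PSMB3 was called in neither. PSMC4 and PSMD1, whose matches lie after the start, fell in HCT116 and were not called in A375. A match is a run of letters and no measured binding site.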

How the data were processed

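RNA abundance was measured by poly(A) RNA sequencing of 24 libraries in 8 groups of 3. Per the submitters' processing notes, reads were processed with STAR 2.4.2a and RSEM 1.2.23 on build hg19. For the annotation release and the strand setting, the sources used here give nothing. Per the file headers, the deposited values used were expected counts, which share out reads that match several genes, and TPM, which the authors scaled for transcript length and depth. Gene symbols, gene order and chromosomes came from a RefSeq table of GRCh38.p14 (25220 of 25343 genes matched; the rest held at most 0.0724% of counts), and coordinates of the hg19 files are not given.

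Expected counts were rounded to whole numbers. Each line was fitted over its 12 libraries, and comparisons across lines over all 24, with edgeR 4.0.16 in R 4.3.3: TMM scaling, the default filter on low counts (minimum count 10, minimum total 15), 1 mean per group, and the two-sided quasi-likelihood F test with robust dispersion. P-values were adjusted by Benjamini-Hochberg over all genes tested, and "rose" and "fell" mean an adjusted p under 0.05. Standard errors of log2 fold changes are the fold change over the root of F. CPM values carry the TMM factors of the line. Depth was 6.21 to 11.69 in units of 1e6 counts, and TPM served for levels of different genes and for the sums over core and cap, which have no test. The scripts were tested on simulated data.

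Named with values in every library were the 4 called members with the largest change in each knockout with inhibitor, the 3 largest in each other comparison, PSMB5, PSMB6, PSMB7 and PSMD14. Regulators, assembly chaperones and up to 4 genes of other related lists with the smallest adjusted p were also named. 1 gene that this rule names is not reported here. The members and the lists were chosen with earlier results of these data known. Replicate numbers were not used as pairs: same-numbered libraries had correlations of -0.15 to 0.11 between their deviations from the group means. Counts of called members and log2 fold changes of the named members were recomputed under other settings. These were DESeq2 1.42.0, DESeq2 size factors, scaling by library size alone, no filter on low counts, and a replicate block. All comparisons but the inhibitor effect by genotype within a line were also refitted with only the libraries compared. Core to cap ratios were recomputed with summed CPM in place of TPM. Each library was also left out in turn for the counts, the log2 fold changes and the TPM ratios, with the main settings alone. Related genes outside the members and the neighbours on chromosome 11 were not recomputed.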

Additional observations from a re-analysis of the deposited data

Results flagged for a closer look

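In HCT116 the inhibitor effect differed between knockout and parent for 14 members, all lower in the knockout by the test of that difference, led by PSMD6 (-0.35), PSMA3 (-0.30) and PSMC4 (-0.29), which is 45.2% of the members beside 33.4% of genes in their range of expression. In A375 the same test gave 8 members, all lower in the knockout, led by PSMD12 (-0.27), PSMD3 (-0.23) and PSMC1 (-0.20). These 8 were 25.8% of the members, below the 32.5% of genes in their range of expression, and numbered 5 with library size alone or DESeq2. Between the knockouts, the inhibitor effect was higher in A375 than in HCT116 for 9 members, led by PSMA3 (0.31), PSMD8 (0.26) and PSMA5 (0.22). These 9 were 29.0% of the members, beside 22.1% of genes in their range of expression. The knockout-to-parent value in vehicle was higher in A375 for 19 members, led by PSMD13 (0.64), PSMC5 (0.42) and PSMA5 (0.31). These 19 were 61.3% of the members, beside 20.3% of genes in their range of expression. Values are differences of log2 fold changes, each past an edgeR adjusted p of 0.05, and their causes were not tested.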

How the results depend on the processing

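The falls in the HCT116 knockout with inhibitor, 19 with the settings of the report, numbered 14 to 19 with each library left out in turn, and those in knockout vehicle, 17, numbered 13 to 20. With a replicate block they numbered 19 and 17, and in the A375 knockout 9 beside 8; the block moved no count of members by over 1.5 times. Library size alone gave 1 member up and 1 down in A375 knockout vehicle (6 and 0 in the report) and 1 up and 5 down for the A375 inhibitor effect by genotype (0 and 8). DESeq2 gave 1 up and 5 down for these comparisons, and the fit of only the libraries compared gave 1 down in A375 knockout vehicle. With libraries left out in turn, A375 knockout vehicle had 2 to 4 up, the A375 knockout with inhibitor 1 to 2 up and 6 to 9 down, and the difference between the knockouts 5 to 10 up. Over all genes DESeq2 called 3631 in the HCT116 knockout with inhibitor, against 4889 by edgeR.

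Core to cap ratios from summed CPM, which is not scaled for length, were below 0 on the log2 scale: -0.37, -0.37, -0.29 and -0.23 in HCT116 and -0.27, -0.29, -0.27 and -0.22 in A375, in the order of the groups in the report, again highest in the knockout with inhibitor. Sign changes were seen only in members that were not called. PSMB6 in the HCT116 knockout with inhibitor was at 0.006 with library size alone and 0.002 with only the libraries compared, and ran from -0.058 to 0.05 with libraries left out in turn. PSMB5 ran from -0.056 to 0.008 there and from -0.046 to 0.003 in A375. PSMD14 in the A375 knockout with inhibitor was at 0.007 with library size alone and 0.005 with no filter, and ran from -0.061 to 0.038 with libraries left out. Changes of a few percent in 3 libraries per group are near the limit of what this spread resolves.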
